A study of Mus musculus with 221 samples.

Results

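Complex I of the respiratory chain (NADH:ubiquinone oxidoreductase) is built from nuclear and mitochondrial gene products, and its nuclear genes carry symbols that start with Nduf. Transcripts of these genes were compared gene by gene between single early 2-cell mouse embryos whose sires had eaten either high-fat food (HFD) or low-fat food (LFD). All genes of the count table with such a symbol were taken, except 4 with the pseudogene suffix -ps (Ndufa12-ps, Ndufab1-ps, Ndufb1-ps and Ndufs5-ps). This gave 49 of 55291 genes, of which 41 were taken as subunits (Ndufa, Ndufb, Ndufc, Ndufs and Ndufv) and 8 as assembly factors (Ndufaf). The symbol alone set these classes and the exclusions. A listed product therefore need not belong to complex I, and a gene with the suffix -ps need not lack a product. Neither was tested. Of the symbols left out, Ndufb1-ps had a count in 220 embryos and a log2 fold change of -0.06 ± 0.12 (SE).

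The embryos came from in vitro fertilization of oocytes of superovulated C57BL/6N-mtST females, which combine the C57BL/6N nuclear genome with mitochondrial DNA of the Staudach (ST) line, with sperm of C57BL/6N males. The males had received HFD or LFD for 2 weeks from 6 weeks of age, and the embryos themselves and their mothers had no diet treatment. There were 99 LFD embryos, 39 of them numbered 31 to 70 in their titles, and the HFD embryos comprised 38 with such a number and 84 with others. Each embryo was a library of its own made by Smart-seq2, which copies polyadenylated RNA and does not mark its strand. The diet was given to the sires, and all embryos of a diet descend from only 4 males. On each date 1 HFD and 1 LFD male gave the sperm, with other males on other dates, and the labels name neither sire nor date. The p-values therefore take embryos as replicates and measure the spread between embryos, in which sires and dates cannot be told apart.

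Complex I takes electrons from NADH to ubiquinone and moves protons across the inner mitochondrial membrane. Its matrix arm holds the N module, where NADH is bound and oxidized, and the Q module, where ubiquinone is reduced. The membrane arm is made of modules named after the mitochondrial subunits they surround, ND1 and ND2 near the matrix arm and ND4 and ND5 at the far end. Around a conserved core lie accessory subunits that stabilize the complex, and assembly factors help to build it without being part of the finished enzyme. The early 2-cell embryo lives largely on mitochondria and transcripts laid down in the oocyte.

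The smallest HFD library held 2296020 counts and the largest 13155271, while LFD libraries held 1937251 to 17246791. In each diet 4 libraries had fewer than 15000 genes with a count. The 6 early 2-cell markers and the 7 oocyte markers examined each had a count in over 50% of embryos. Of 12 macrophage markers, C1qa, C1qc, Adgre1, Tyrobp and Fcer1g had a median of 0 in both diets. Their summed level, as log2 of counts per 1000000 counts (CPM) with 0.5 added, ran from 5.27 to 7.11 in LFD and from 3.83 to 12.57 in HFD embryos. In 10 HFD embryos it lay above every LFD embryo, and the mean of all 12 markers was higher in HFD. Of 10 cumulus and granulosa markers 7, and of 7 sperm markers 5, had a median of 0.

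As counts per kilobase of exon and 1000000 counts, means over all embryos ran from 0.098 for Ndufb4c to 136 ± 47.4 (SD) for Ndufb6. Ndufb6, an accessory subunit of the ND4 module, stood above all others, with 144.83 ± 51.9 in HFD and 124.98 ± 38.7 in LFD embryos. Ndufb11 of the ND4 module (59.7 ± 27.6) and Ndufa2 of the N module (58.2 ± 27.9) came next. Their means differed by far less than the SD between embryos, and their order was not tested. Ndufb6 also ranked first when the length of the principal transcript was used in place of all annotated exons. Genes with long annotated isoforms gained on that scale, for example Ndufb8, from 3.01 to 13.9.

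The assembly factors lay within the range of the subunits. Ndufaf4, which acts with Ndufaf3 early in assembly on the Q module, had the highest level of the 8 (28.3 ± 13.9), and Ndufaf5, a hydroxylase of Ndufs7, followed at 9.63 ± 5.34. Ndufaf6 (0.65 ± 1.58) and Ndufaf1 (0.79 ± 1.19), both of which act early in assembly, had the lowest. The median over genes was 6.29 for the assembly factors, 3.89 for the subunits and 4.56 for all 14820 genes that passed the low-count filter. The first 2 medians include the 8 members that failed the filter, all of them below 4.56, so they are not on the same footing as the last. Above that last median lay 4 of 8 assembly factors and 19 of 41 subunits. All of these passed the filter, as did 6 assembly factors and 35 subunits in total.

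**Figure D1:**
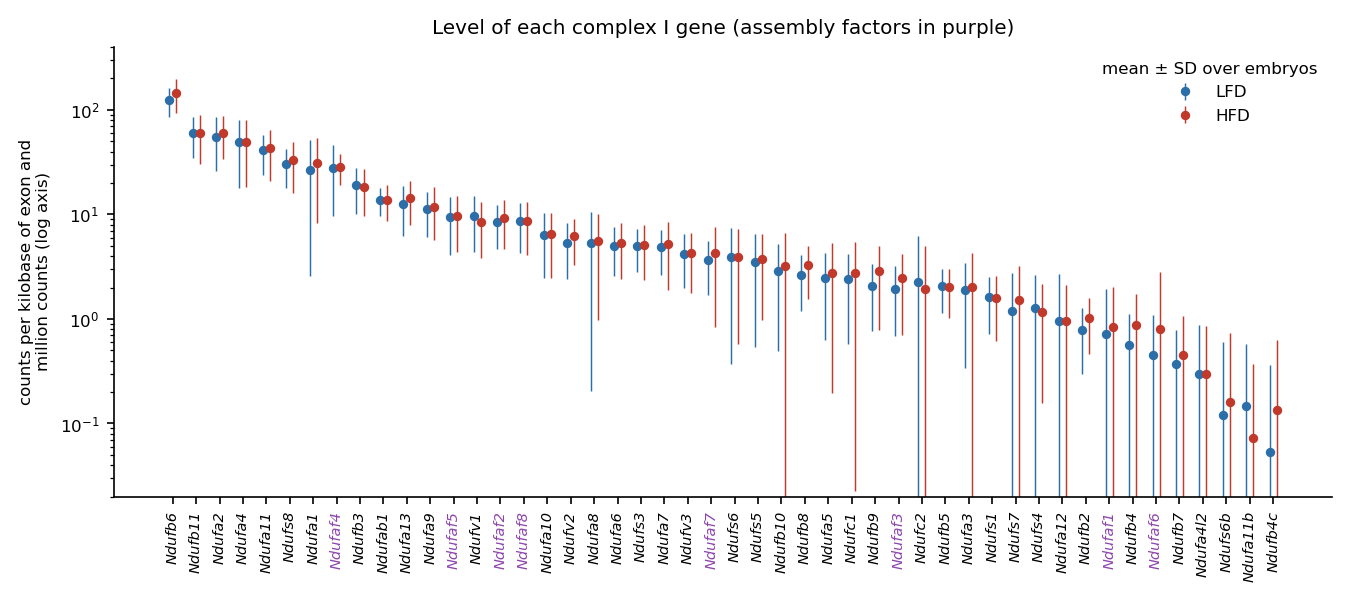
Mean level of single complex I genes in counts per kilobase of exon and 1000000 counts (log axis), with the SD over LFD (blue) and HFD (red) embryos. Bars that reach the lower edge have an SD near or above the mean. Ndufb6 (136 over all embryos) is highest, and the means of the 2 diets lie close together for most genes.

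The filter was passed by 41 members, 35 subunits and 6 assembly factors, and 8 were too low to be tested. Ndufb4c, Ndufa11b and Ndufs6b, which consist of a single exon, had no count in 87.9 to 96% of the embryos of either diet. Every stretch of 50 bases of Ndufb4c also occurs in another gene, and no gene shares more of them than Ndufb4. Reads that map to several places are not counted, and how many reads of Ndufb4c this removed was not tested. Ndufa4l2, a paralog of Ndufa4, had no count in 56.6% of HFD and 63.6% of LFD embryos. Ndufa12, an accessory subunit of the N module, was missing in 23.8% and 28.3%, and Ndufc2 of the ND2 module in 26.2% and 23.2%. Of the assembly factors, Ndufaf1 had no count in 37.7% and 48.5% and Ndufaf6 in 51.6% and 49.5%. These zeros are at the depth of single embryos and do not show absence of the transcript.

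Between the diets, 3 members passed the test with a higher level in HFD embryos (edgeR quasi-likelihood test, false discovery rate [FDR] under 0.05 over all genes tested), namely Ndufb6, Ndufb2 and Ndufb8. All 3 are accessory subunits of the far part of the membrane arm. Of all genes tested, 1.26% were called higher, against 3 of 41 members. None of the members was called lower, where 0.891% of all genes were. At an unadjusted p under 0.05, 10 members had a higher and 0 a lower level, beside 7.51% of all genes higher and 825 of 14820 lower. The log2 fold change was above 0 in 39 of 41 members and in 54% of all genes. This share depended on the tool, as limma-voom gave 27 of 41 members above 0 and 47.2% of all genes. The median log2 fold change was 0.13 over the subunits, 0.14 over the assembly factors and 0.01 over all genes tested. The subunit median was 0.056 with limma-voom, 0.075 with the macrophage gene level as a covariate and 0.070 without the 10 HFD embryos of highest macrophage gene level.

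**Figure D2:**
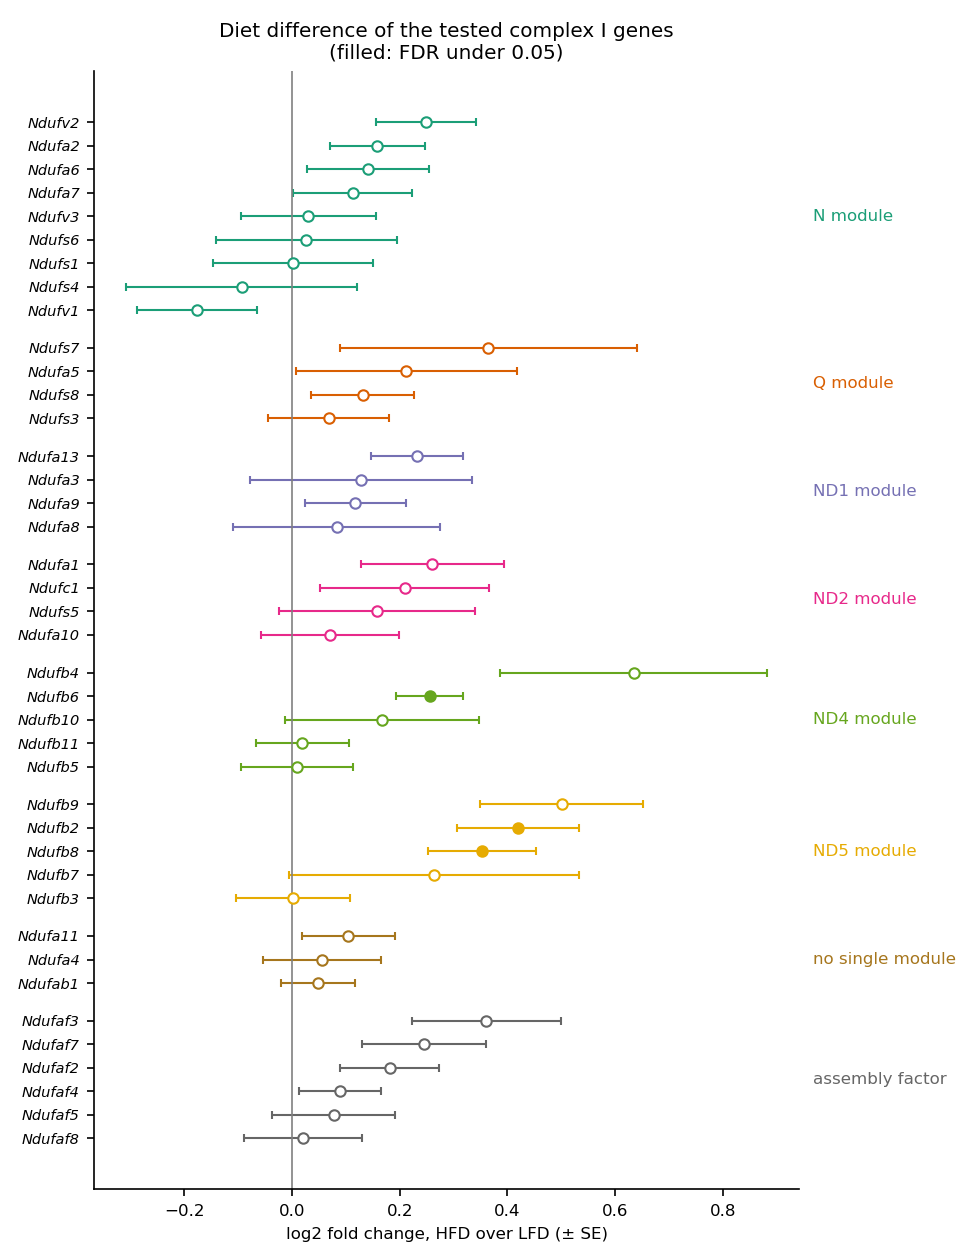
Log2 fold change (HFD over LFD, ± SE, edgeR) of single tested members, grouped by module or as assembly factors. Filled points passed the FDR of 0.05 (Ndufb6, Ndufb2 and Ndufb8), and only Ndufv1 and Ndufs4 have a point left of 0.

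Ndufb6 had from 31.1 to 186 CPM in LFD embryos, with a median of 80.2. In HFD embryos it ran from 33.4 to 312, with a median of 92.7. The groups overlapped over nearly their whole range, as 79 HFD embryos (64.8%) lay above the LFD median and 2 above the highest LFD embryo. The fold change was 1.19 (log2 0.26 ± 0.06, edgeR FDR = 0.0080), and HFD embryo 28 had the highest level. Ndufb6 lies at chr4:40270591-40279421 on the minus strand (GRCm38).

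Ndufb2 of the ND5 module (chr6:39592574-39603382, plus strand) had the largest fold change of the members called. It ran from 0.615 to 20.8 CPM in LFD embryos (median 3.95) and from 1.14 to 17.4 in HFD embryos (median 5.23). Of the HFD embryos, 81 lay above the LFD median and 0 above the highest LFD embryo. The fold change was 1.34 (log2 0.42 ± 0.11, edgeR FDR = 0.020).

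Ndufb8, another subunit of the ND5 module (chr19:44548572-44555440, minus strand), ran from 2.22 to 37.3 CPM in LFD embryos with a median of 7.63. In HFD embryos it ran from 1.08 to 35.97 with a median of 9.50. Here 78 HFD embryos exceeded the LFD median and 0 the highest LFD embryo, so the groups again overlapped. The fold change was 1.28 (log2 0.35 ± 0.10, edgeR FDR = 0.034). Ndufb2 and Ndufb8 were both highest in LFD embryo 26, which held the highest level of 11 of the 49 genes. Without that embryo the same 3 members were called, and Ndufv2 was added.

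**Figure D3:**
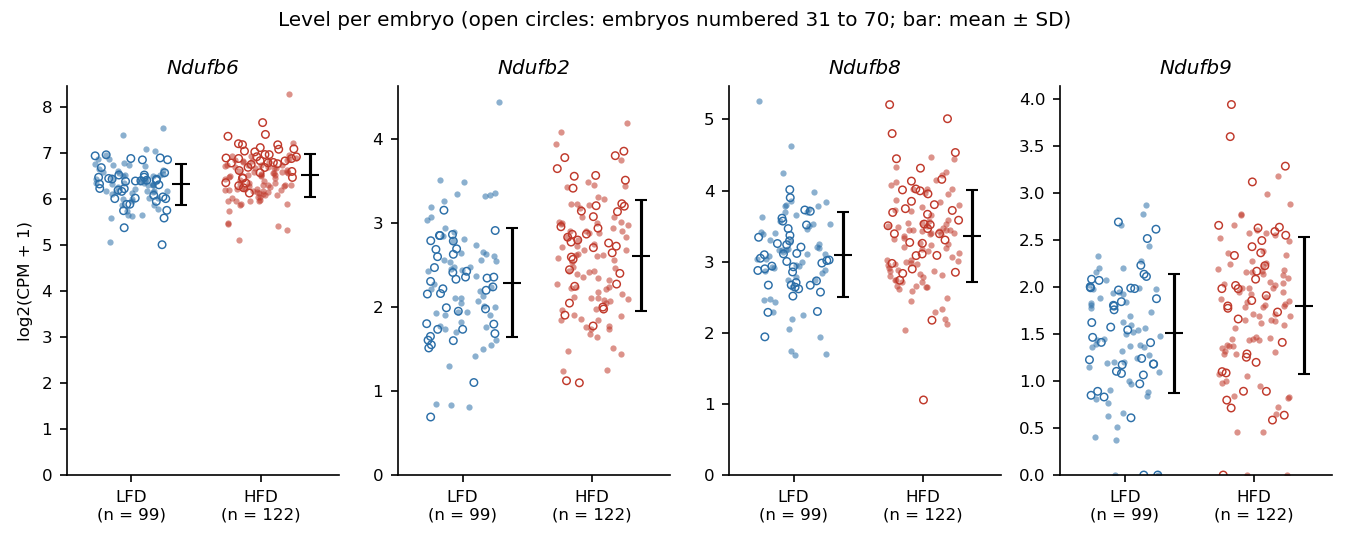
Level of Ndufb6, Ndufb2, Ndufb8 and Ndufb9 in each embryo as log2(CPM + 1), for all LFD (blue) and HFD (red) embryos, with mean ± SD in black. Open circles are embryos numbered 31 to 70, and the diets overlap in every panel.

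Just outside the threshold stood Ndufb9, again of the ND5 module, with a fold change of 1.41 (log2 0.50 ± 0.15, edgeR FDR = 0.051). It was a gene of few reads, with a median of 1.88 CPM in LFD (0 to 6.29) and 2.59 in HFD embryos (0 to 14.3). Of the HFD embryos, 81 exceeded the LFD median and 7 the highest LFD embryo. Ndufa13, an accessory subunit beside ND1 also known as GRIM19, had medians of 14.7 and 16.2 CPM (log2 fold change 0.23 ± 0.08, FDR = 0.14). Ndufv2, an iron-sulfur subunit of the N module, had 11.1 and 12.4 (0.25 ± 0.09, FDR = 0.15). Ndufb4 of the ND4 module had the largest fold change of all tested members, log2 0.63 ± 0.25, but few counts (medians 0.784 and 1.19 CPM, FDR = 0.18). None of these 4 passed the test.

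The core subunits, which hold the flavin and the iron-sulfur clusters of the matrix arm, had no call. Ndufv1, which binds NADH and the flavin, had the lowest fold change of all members, with medians of 25.1 CPM in LFD and 20.8 in HFD embryos (log2 -0.18 ± 0.11, edgeR FDR = 0.53). The core as a whole, with 7 members tested, had a median log2 fold change of 0.13 and 0 calls. Among the most abundant subunits, Ndufb11 had a log2 fold change of 0.02 ± 0.09 and Ndufa2 of 0.16 ± 0.09 (FDR = 0.97 and 0.44).

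By module, the median log2 fold change was lowest in the N module (0.03, 9 genes) and highest in the ND5 module (0.35, 5 genes). It was 0.18 in the Q module (5 genes), 0.12 in the ND1 module (4), 0.18 in the ND2 module (4) and 0.17 in the ND4 module (5). The ND5 module had 2 calls, the ND4 module 1 and the others 0. With limma-voom the ND4 module was lowest (-0.003, with 2 of 5 genes above 0, against 5 of 5 with edgeR). Without the HFD embryos numbered 31 to 70 its edgeR median was -0.05, over the 4 genes that passed the filter there. Ndufb4, the member of largest fold change, was not among these 4. The differences between modules were not tested.

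No assembly factor was called, and all 6 that were tested had fold changes above 0. Ndufaf3, the partner of Ndufaf4, had 0.693 to 12.4 CPM in LFD embryos (median 2.89) and 0.229 to 18.2 in HFD embryos (median 3.68), with a log2 fold change of 0.36 ± 0.14 (edgeR FDR = 0.17). Ndufaf7, a methyltransferase that acts in complex I assembly, had nearly the same median in both diets, 12.3 CPM, and a log2 fold change of 0.25 ± 0.11 (FDR = 0.32). In HFD embryo 64 it reached 114.99 CPM, against 43.7 in the highest LFD embryo. Ndufaf2, which acts late when the N module joins, had 0.18 ± 0.09 (FDR = 0.38). Ndufaf8, a partner of Ndufaf5, had the lowest value of the group, 0.02 ± 0.11 (FDR = 0.98), while Ndufaf4 had 0.09 ± 0.08 and Ndufaf5 0.08 ± 0.11. Summed over all 8 genes, the level was 7.50 ± 0.33 (SD, log2 of summed CPM) in HFD and 7.41 ± 0.34 in LFD embryos. Summed over the 41 subunits it was 9.43 ± 0.31 and 9.37 ± 0.26. The difference between both sums per embryo was 1.931 ± 0.332 in HFD and 1.962 ± 0.319 in LFD embryos, so the proportion of subunit to assembly factor transcripts moved by far less than its SD.

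Exons of 17 members overlap exons of a gene on the opposite strand. As the libraries do not mark strand while reads were counted by strand, reads from such a pair cannot be told apart. This touches the member with the smallest p. The last exon of Ndufb6 shares 257 bases, 39% of its exonic length, with Smim27 (chr4:40270591-40270847), and Smim27 was itself called higher, with a log2 fold change of 0.23 ± 0.06 (edgeR FDR = 0.0080). Over embryos the 2 levels followed each other, with a Spearman correlation of 0.84 over all HFD and 0.85 over all LFD embryos. Ndufb2 shares 156 bases near its start with Gm16272, which was also called higher (0.31 ± 0.09, FDR = 0.044), with correlations of 0.47 and 0.32. At its other end it shares 146 bases with Braf (0.22 ± 0.13, FDR = 0.50). Of the 18 opposite-strand neighbours that were tested, these 2 were called higher and 0 lower. Ndufb8 and Ndufb9 have no such neighbour, and each overlaps only a same-strand gene without a count in any embryo. The shared bases make up 4.3% of the exonic length of Ndufb8 and 19.5% of that of Ndufb9. As reads that overlap several genes are not counted, a neighbour without a count is not shown to be absent. High correlations were also seen for Ndufab1 with Gm44986 (0.92 in HFD and 0.91 in LFD) and Ndufa11 with Vmac (0.88 and 0.73). What part each gene of a pair has in these counts was not tested.

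Copies elsewhere in the genome touch other members. Reads that map to several places were left out of the counts, but how many this removed from each gene was not tested. For 18 of the 49 genes, a stretch of 50 bases of the principal transcript also occurs in a gene that does not overlap them. The share of such stretches was 100% for Ndufb4c, 37% for Ndufb4, 35.8% for Ndufs3, 31.1% for Ndufs5 and 26.2% for Ndufa12. It was 0.069% for Ndufb2 and 0 for Ndufb6, Ndufb8 and Ndufb9.

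The labels name no handling batch, and the embryo number in the titles is the only order they give. In ranges of 10 numbers that hold both diets, the HFD mean of log2(CPM + 1) was higher in 8 of 11 ranges for Ndufb6, 10 of 11 for Ndufb2, 10 of 11 for Ndufb8 and 8 of 11 for Ndufb9. The size of the difference varied with the numbers. For Ndufb6 it was 0.36, 0.67, 0.61 and 0.52 in the ranges 31 to 40, 41 to 50, 51 to 60 and 61 to 70, and between -0.15 and 0.35 in the other 7. For the summed level of the subunits those 4 ranges gave 0.19, 0.41, 0.29 and 0.26, and the other 7 between -0.22 and 0.21.

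**Figure D4:**
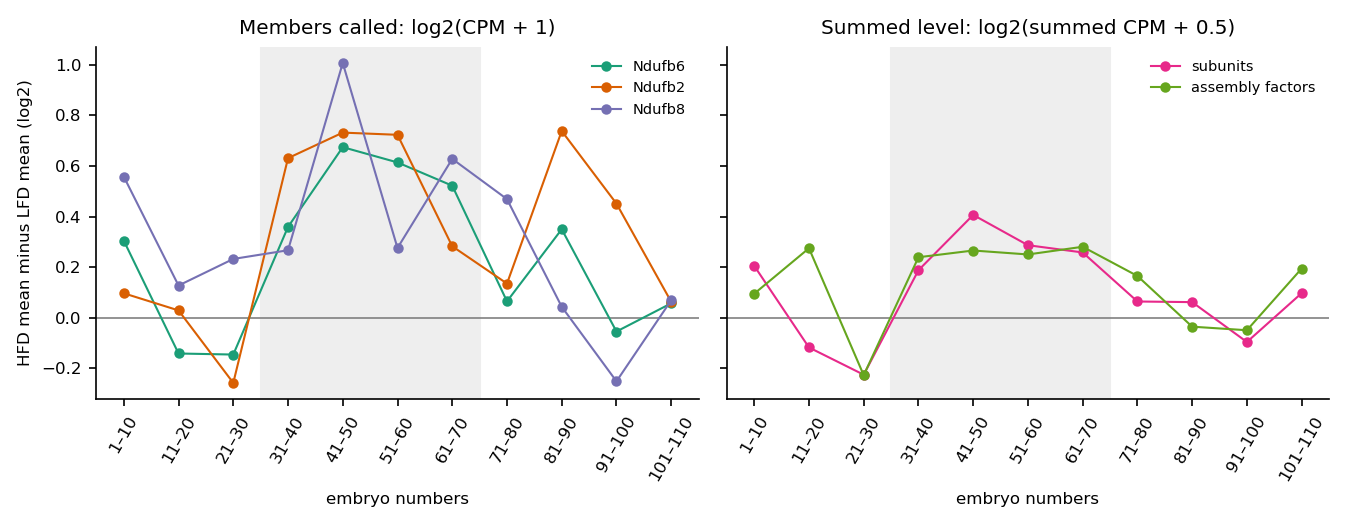
HFD mean minus LFD mean in each range of 10 embryo numbers, for the 3 members called (left, log2(CPM + 1)) and for the summed levels of subunits and assembly factors (right, log2 of summed CPM with 0.5 added). Shading marks the numbers 31 to 70, a range chosen with results known, where the subunit sum differs by 0.19 to 0.41.

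The numbers 31 to 70 were chosen with results of these data known, so counts and FDRs within them are a description only. Within the numbers 31 to 70 (38 HFD and 39 LFD embryos), 7 of 39 members tested were called higher by edgeR, beside 5.09% of all genes. These were Ndufb6, Ndufb2, Ndufb8, Ndufv2, Ndufa1, Ndufa2 and Ndufa11. The log2 fold change of Ndufb6 was 0.55 (FDR = 1.4e-05) there, that of Ndufb2 0.79 and that of Ndufb8 0.75. The median was 0.42 over the subunits and 0.39 over the assembly factors, and 34 of 39 members lay above 0, beside 50.6% of all genes.

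With those numbers left out in both diets (84 HFD and 60 LFD embryos), 0 of 40 members were called by edgeR, beside 0.113% of all genes higher, and 1 had a higher level at an unadjusted p under 0.05, beside 544 of all 15101 genes tested. The log2 fold change was 0.09 for Ndufb6 (FDR = 0.94), 0.22 for Ndufb2 (FDR = 0.87) and 0.13 for Ndufb8 (FDR = 0.94). The medians were 0.004 over the subunits and 0.02 over the assembly factors, with 21 of 40 members above 0, beside 52.6% of all genes. Leaving out the HFD embryos alone also ended all 3 calls (0 of 40 members, beside 0.405% of all genes), with log2 fold changes of 0.14 for Ndufb6, 0.35 for Ndufb2 and 0.22 for Ndufb8. A random effect for the ranges of 10 numbers within each diet did so too (limma-voom, 0 of 41, beside 0.344%), with FDRs of 0.072 for Ndufb6, 0.086 for Ndufb2 and 0.21 for Ndufb8. The log2 fold changes in that fit, 0.24 ± 0.07, 0.44 ± 0.13 and 0.33 ± 0.12 (SE), were close to those without the random effect. With ranges shared by the diets as the random effect, 4 members were called (limma-voom FDR = 0.0056 for Ndufb6, 0.0084 for Ndufb2, 0.032 for Ndufb8 and 0.041 for Ndufa13), beside 1.27% of all genes. The difference between the 2 sets of numbers was not tested, and the range was chosen with results known.

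**Figure D5:**
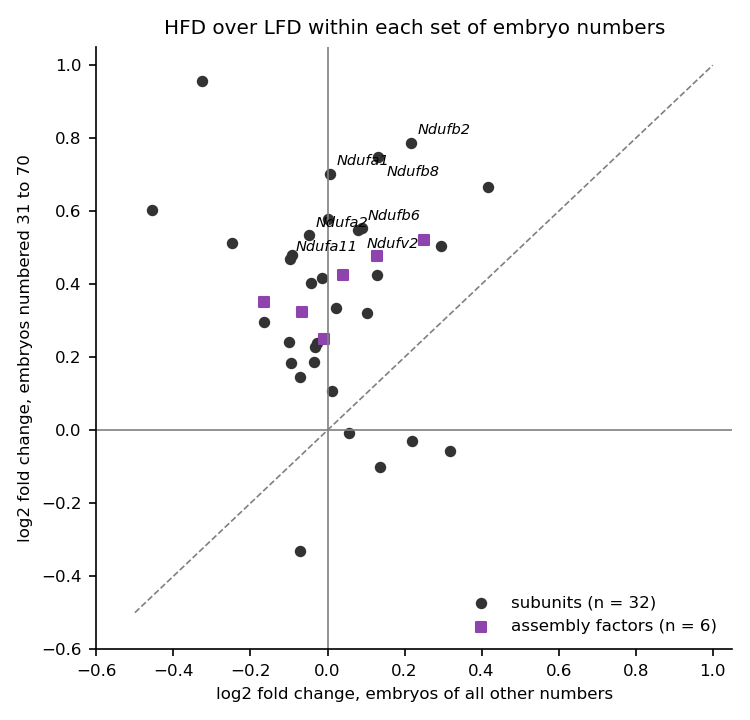
Log2 fold change (HFD over LFD) of 38 members tested in both sets, among embryos numbered 31 to 70 (vertical axis) and among all other embryos (horizontal axis), with the line of equal values dashed. Above it lie 33 of the 38, and named genes were called in the embryos numbered 31 to 70, a range chosen with results known.

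Other features of the libraries moved with these numbers. The HFD embryos numbered 31 to 70 had a median of 17613 genes with a count, against 18588 in the LFD embryos of those numbers. Mitochondrial genes took 6.52% of their counts on average, against 3.93% in LFD. In the other numbers the medians were 19310 and 18806 genes and the mean shares 5.47% and 4.84%. Over the HFD embryos, Ndufb6 was lower where more genes had a count (Spearman correlation -0.49 over all HFD embryos), while in LFD embryos the value was -0.16 (n = 99). For Ndufb2 the values were 0.01 and 0.20. Leaving out the libraries with fewer than 15000 genes gave 6 calls of 41 (Ndufb6, Ndufb2, Ndufb8, Ndufb9, Ndufa13 and Ndufv2), beside 2.17% of all genes. The part of these features in the diet difference was not tested.

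Of the 10 HFD embryos with the highest macrophage gene level, 4 were numbered 31 to 70. Without the 10, Ndufb6 and Ndufb2 were still called (2 of 39 members, beside 0.662% of all genes), while for Ndufb8 the log2 fold change was 0.30 with an edgeR FDR of 0.12. With the macrophage gene level as a covariate the FDR of Ndufb8 was 0.086 and its log2 fold change 0.31.

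The other genes of the chain were read beside the members. Of 12 assembly factors without an Nduf symbol in the table, 11 were tested and 0 were called, with a median log2 fold change of 0.06 and 6 of 11 above 0. The highest were Tmem126a (0.50 ± 0.18, edgeR FDR = 0.13) and Timmdc1 (0.27 ± 0.10, FDR = 0.15), which act on the membrane arm. Of 41 nuclear genes of complexes II to V, 1 was called higher (Cox5b, a subunit of cytochrome c oxidase, 0.25 ± 0.06, FDR = 0.013) and 0 lower. Their median was 0.11, and 34 of 41 lay above 0. Of all genes tested, 1.26% were called higher and 0.891% lower, and 54% lay above 0. With limma-voom 29 of 41 genes of complexes II to V lay above 0, beside 47.2% of all genes. The median of the complex I subunits, 0.13, lay near that of the other complexes.

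The 7 mitochondrially encoded subunits of complex I had log2 fold changes between 0.23 and 0.40. Called higher were mt-Nd1, mt-Nd2, mt-Nd4 and mt-Nd4l, beside 1.26% of all genes. These values lie above the median of the nuclear subunits (0.13). For mt-Nd4 the log2 fold change was 0.37 ± 0.07 (edgeR FDR = 1.3e-04), and for mt-Nd2 0.40 ± 0.09 (FDR = 0.0052). In the numbers 31 to 70 the median of the 7 was 0.62, and in the other numbers 0.21 with 0 called, beside 0.113% of all genes higher. With only the HFD embryos of those numbers left out, the median was 0.33. In that setting 3 of the 7 (mt-Nd1, mt-Nd4 and mt-Nd4l) were called higher by edgeR, beside 0.405% of all genes.

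Within each diet, correlations between members across embryos were low. Over the 325 pairs among 26 well-counted members (mean log2 CPM no less than 3), the median Spearman correlation was 0.11 in HFD and 0.06 in 99 LFD embryos. For the nuclear genes of complexes II to V it was 0.20 and 0.15. In 18 pairs it was above 0.4 in both diets, and the highest was that of Ndufa1 with Ndufa4 (0.70 in HFD and 0.59 in LFD). Ndufb6 had such values with Ndufa11 (0.64 and 0.47) and Ndufaf5 (0.47 and 0.46), among others. Ndufa10 and Ndufaf5 ran in opposite directions (-0.46 and -0.41). All genes of an embryo share its library and its depth.

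The promoters of the 3 members called are shown because these were the genes that passed the test. Promoter sequences were from RefSeq (GRCm38.p6) and were found for 40 members. Each run holds the 150 bases just before the RefSeq start, read along the strand of the gene. Capitals mark a match to GCGCATG, a core of the motif of NRF1 (a regulator of nuclear genes for mitochondrial proteins), or to TGACGTCA, the cyclic AMP response element (CRE). They lie at chr4:40279422-40279571 on the minus strand for Ndufb6, chr6:39592415-39592564 on the plus strand for Ndufb2 and chr19:44555443-44555592 on the minus strand for Ndufb8.
Ndufb6: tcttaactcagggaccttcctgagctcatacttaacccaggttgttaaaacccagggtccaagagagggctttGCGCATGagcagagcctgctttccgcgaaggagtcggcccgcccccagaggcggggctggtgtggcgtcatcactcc
Ndufb2: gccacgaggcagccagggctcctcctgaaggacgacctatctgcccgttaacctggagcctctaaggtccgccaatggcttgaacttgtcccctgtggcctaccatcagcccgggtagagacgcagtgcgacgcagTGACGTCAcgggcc
Ndufb8: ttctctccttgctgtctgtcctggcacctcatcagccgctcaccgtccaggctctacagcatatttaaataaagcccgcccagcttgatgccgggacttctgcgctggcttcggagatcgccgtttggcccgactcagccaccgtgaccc

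The NRF1 core of Ndufb6 begins 77 bases before the start and the CRE of Ndufb2 14 bases before it. In the run of Ndufb8 no searched motif occurs, but an NRF1 core begins 6 bases after the start and a YY1 motif (AAGATGGC) 38 bases after it. In windows from 250 bases before to 50 after the start, searched on both strands, the NRF1 core occurred in 7 of 40 members, 7.06% of tested genes and 3.99% of all 27025 genes with a window. The YY1 motif occurred in 8 of 40 members, 4.62% of tested genes and 2.86% of all. The CRE occurred in 3 of 40, 2.87% and 1.78%, the ETS motif (CCGGAAG) in 6 of 40, 17.4% and 9.08%, and the estrogen-related receptor motif (TCAAGGTC) in 2 of 40, 0.851% and 1.04%. A TATA box (TATAAA) was found in 4 of 40 members, 7.72% of tested genes and 14.1% of all. None of these motifs was shared by all 3 members called. A match is a description of the letters only.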

How the data were processed

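Polyadenylated RNA of single early 2-cell embryos was sequenced by Smart-seq2 (122 HFD and 99 LFD libraries). Per the labels and methods, the authors trimmed reads with Trim Galore 0.6.6, mapped them with STAR 2.7.10a to GRCm38 with the mitochondrial sequence replaced by that of the ST line, and counted reads per gene with featureCounts 2.0.3 (strand setting 2). The deposited values are raw counts per gene. Reads that map to several places or genes are not counted, which can lower genes with copies.

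From these counts, HFD was compared with LFD by edgeR 4.0.16 in R 4.3.3 (quasi-likelihood test, TMM scaling, filterByExpr, Benjamini-Hochberg adjustment over 14820 genes, FDR threshold 0.05). The SE is the log2 fold change divided by the root of F. Alternatives used DESeq2 1.42.0 and limma 3.58.1, and the steps were tested on simulated data. CPM is the count per 1000000 counts, with 1 added before log2 for single genes. Levels per length divide CPM by the exonic length. Total counts per library were from 1937251 to 17246791.

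Named genes were those called, the 4 subunits and 3 assembly factors of smallest p among the rest, the 3 subunits and 2 assembly factors of highest and of lowest level, those that failed the filter, and the lowest fold change in each group. Members of other lists were named as examples after their values were seen. The members and lists were chosen with earlier results of these data known. Diet was the only term of the model, and embryo sex is not in the labels. The values of 1 member are not reported here singly, in the text or the plots, and it stays in all counts, sums and medians.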

Additional observations from a re-analysis of the deposited data

How the results depend on the processing

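The 3 calls (Ndufb6, Ndufb2 and Ndufb8) were also made with DESeq2 and limma-voom, and no alternative run called a member lower. The median summed level of Y-linked genes, as log2 of CPM with 0.5 added, was 5.43 in HFD and 3.57 in LFD embryos. With that level as a covariate the same 3 members were called, beside 1.13% of all genes. The X-linked Ndufa1 and Ndufb11 then had log2 fold changes of 0.28 and 0.10, against 0.26 and 0.02 without it. The number of members called higher was 6 without a low-count filter (beside 10.9% of all genes), 6 without libraries of few genes (2.17%), 4 without LFD embryo 26 (1.39%), 4 with number ranges shared by the diets as a random effect (1.27%), 7 (5.09%) in the embryos numbered 31 to 70 alone, and 0 without the HFD embryos of those numbers, without both diets of those numbers, and with number ranges within diet as a random effect. Ndufb8 missed the threshold with the macrophage gene level as a covariate (FDR = 0.086, edgeR, log2 fold change 0.31) and with an offset for gene length (FDR = 0.085, log2 fold change 0.37), against 0.35 without them. The median log2 fold change of the subunits was 0.42 in the embryos numbered 31 to 70. Of the assembly factors without an Nduf symbol, 1 of 12 was called higher without a filter (beside 10.9% of all genes) and 2 of 10 in the numbers 31 to 70 (5.09%). Of the 41 genes of complexes II to V, 2 were called higher with DESeq2 (beside 1.55% of all genes) and 3 without a filter (10.9%). The count was 3 without libraries of few genes (2.17%) and 9 in the numbers 31 to 70 (5.09%). It was 0 without those numbers in HFD (0.405%) or in both diets (0.113%). It was also 0 with the random effect within diet (0.344%) and without the HFD embryos of high macrophage gene level (0.662%). The summed subunit level per length was 770 with the principal transcript, against 554. The causes were not tested, except that the last follows from the shorter lengths.

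Without the numbers 31 to 70, log2 fold changes turned to -0.048 for Ndufa2, -0.010 for Ndufaf4 and -0.066 for Ndufaf5. For Ndufaf8 and Ndufb11, in that order, the values were -0.17 and -0.10 in that setting, -0.037 and -0.0027 with limma-voom, -0.042 and -0.0017 with the random effect within diet, -0.028 and -0.00087 with ranges shared by the diets, -0.074 and -0.074 without the HFD embryos of those numbers, -0.0092 and -0.033 with the macrophage covariate, and -0.016 and -0.033 without the HFD embryos of high macrophage gene level.

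Embryo numbers did not pair the samples. Over 94 numbers found in both diets, the correlation of same-numbered embryos had a median of 0.006 and 17 were above 0.1. With the replicate block 3 members were called higher (Ndufb6, Ndufb2 and Ndufb8, beside 1.43% of all genes), and 5 in the same embryos without the block (2.29%), where other assembly factors had 2 calls and complexes II to V 3. In single embryos, genes of few counts limit what can be seen.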
